A study of Mus musculus with 2 samples.

Results

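The genes described here are 9 members of the interleukin 17 and 23 axis in mouse gingiva: the effector cytokines Il17a, Il17f and Il22, the inducing cytokine subunits Il23a, Il12a and Il12b, the cytokine Il6, and the receptor subunits Il23r and Il17ra. They were chosen by symbol, and each symbol matched exactly 1 of the 32285 genes in the count matrices. The data are droplet single-cell RNA-seq of cells sorted from gingival tissue, with 1 diabetic and 1 normoglycemic library. The diabetic mice had type I diabetes induced with streptozotocin, a drug that kills insulin-producing cells, and the normoglycemic mice did not. Both groups carried the genotype CD11CCre-/-;FoxoLL on a mixed C57B6 - FVB background. Their Foxo1 gene had loxP sites around exon 2 but they carried no Cre, and per the labels the Foxo1 protein was normal. Both groups had 2 weeks of inflammation induced by bacteria and a wait of 2 weeks. Each library is a pool of 4 mice with no replicate, sorted for live CD45+ cells free of CD31 and Ter-119, with 20% enrichment of CD11c+ cells.

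Interleukin 23 is a dimer of the subunit encoded by Il23a with the shared subunit encoded by Il12b, whereas the product of Il12a pairs with that shared subunit to form interleukin 12. Interleukin 23 from phagocytes acts through a receptor that includes Il23r on T cells and innate lymphoid cells of the type 17 programme, which then release interleukins 17A, 17F and 22. Interleukins 17A and 17F signal through Il17ra on many cell types, raise neutrophil-attracting chemokines and protect barrier tissues, and in the gingiva they are known both for defence and for periodontal bone loss.

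The diabetic matrix held 10496 barcodes with 78220582 UMIs (unique molecular identifiers, each 1 counted transcript) and the normoglycemic matrix 11280 barcodes with 89339733 UMIs. After filters, 10260 diabetic and 10948 normoglycemic cells remained, with medians of 4631.5 and 5302.5 UMIs. Cells were put in classes by marker genes, none of them a member, and a class name such as gamma-delta T cell means a cell that resembles that type by these markers (gamma-delta T cell-like). Levels are given as CPM, the UMIs of a gene per 1000000 UMIs of the class. With 1 library per group, no difference could be set against replicates, and all intervals are 95% and cover counting error only. Within a class, fewer cells that express a gene and less RNA per cell were separated only through shares and counts per cell. A total of 32 barcodes occurred in both matrices. Neutrophil genes were found in cells of other classes, with S100a8 detected in 47.6% of diabetic and 70.5% of normoglycemic B cells. The salivary gene Dcpp1 was detected in 40.1% of diabetic and 0.325% of normoglycemic B cells.

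The 9 genes lie on 6 chromosomes in the mouse genome build GRCm38, and no annotated gene overlaps any of them. Il17a (chr1:20730905-20734496, plus strand) and Il17f (chr1:20777146-20790617, minus strand) face each other across 42649 bases, within which no annotated gene lies whole. Il22 lies at chr10:118204942-118210047 and Il23a at chr10:128296139-128298752, Il12a at chr3:68690644-68698547, Il12b at chr11:44400063-44414033 and Il6 at chr5:30013114-30019981. The receptor genes Il23r (chr6:67422932-67491855) and Il17ra (chr6:120463247-120487559) share a chromosome. The sequences just upstream of the start of Il17a, Il17f and Il23r are shown because gamma-delta T cells had the highest level of these genes among the classes compared. They are RefSeq promoter sequences of build GRCm38.p6, read 5′ to 3′ on the strand of the gene and ending at the base before the RefSeq RNA start. For Il17f that start lies inside the longer annotated gene given above, and 224 of the 250 bases searched are printed, since the others fall in an annotated exon. Capitals mark AGGTCA or its reverse complement TGACCT, a core that many nuclear receptors are known to bind, and these are matches of letters, not sites shown to be bound.
Il17a, chr1:20730655-20730904: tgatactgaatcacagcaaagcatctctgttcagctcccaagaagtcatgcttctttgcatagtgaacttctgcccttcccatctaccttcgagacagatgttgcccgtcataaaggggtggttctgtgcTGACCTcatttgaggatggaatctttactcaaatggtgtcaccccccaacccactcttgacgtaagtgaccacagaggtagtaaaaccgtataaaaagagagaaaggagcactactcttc
Il17f, chr1:20784271-20784494: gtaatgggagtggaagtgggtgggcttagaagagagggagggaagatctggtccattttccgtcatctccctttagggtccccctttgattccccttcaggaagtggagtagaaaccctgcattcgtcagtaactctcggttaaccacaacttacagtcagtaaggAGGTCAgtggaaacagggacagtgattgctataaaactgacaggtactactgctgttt
Il23r, chr6:67491856-67492105: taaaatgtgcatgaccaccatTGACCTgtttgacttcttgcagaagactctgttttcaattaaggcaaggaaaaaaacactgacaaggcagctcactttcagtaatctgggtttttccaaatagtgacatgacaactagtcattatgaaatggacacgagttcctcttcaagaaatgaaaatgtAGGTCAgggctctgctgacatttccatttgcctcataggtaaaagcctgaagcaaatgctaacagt
The motif was searched on both strands in the 250 bases before each start. Il17a and Il17f had 1 match each and Il23r had 2, and the promoter windows of Il22, Il12a, Il12b and Il6 had 0. Of all 32851 promoter windows in the table, 14.0% held the motif. Sequences were matched for 7 of the 9 genes, all but Il17ra and Il23a.

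The 9 genes were divided among a few classes, and for all of them but Il17ra the same large class was highest in both libraries (the plot of levels by class). Gamma-delta T cells led for Il17a, Il17f and Il23r. Alpha-beta T cells led for Il22, neutrophils for Il23a, mature dendritic cells for Il12b, and monocytes for Il12a, Il6 and Il17ra. Leading means the highest mean of both levels among the 9 classes that reached 50 cells in each library. B cells, which are not known for making interleukin 17A, 17F or 22, served as the measure of free RNA. For the other genes, how much of the B cell level was free RNA was not tested.

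**Figure D1:**
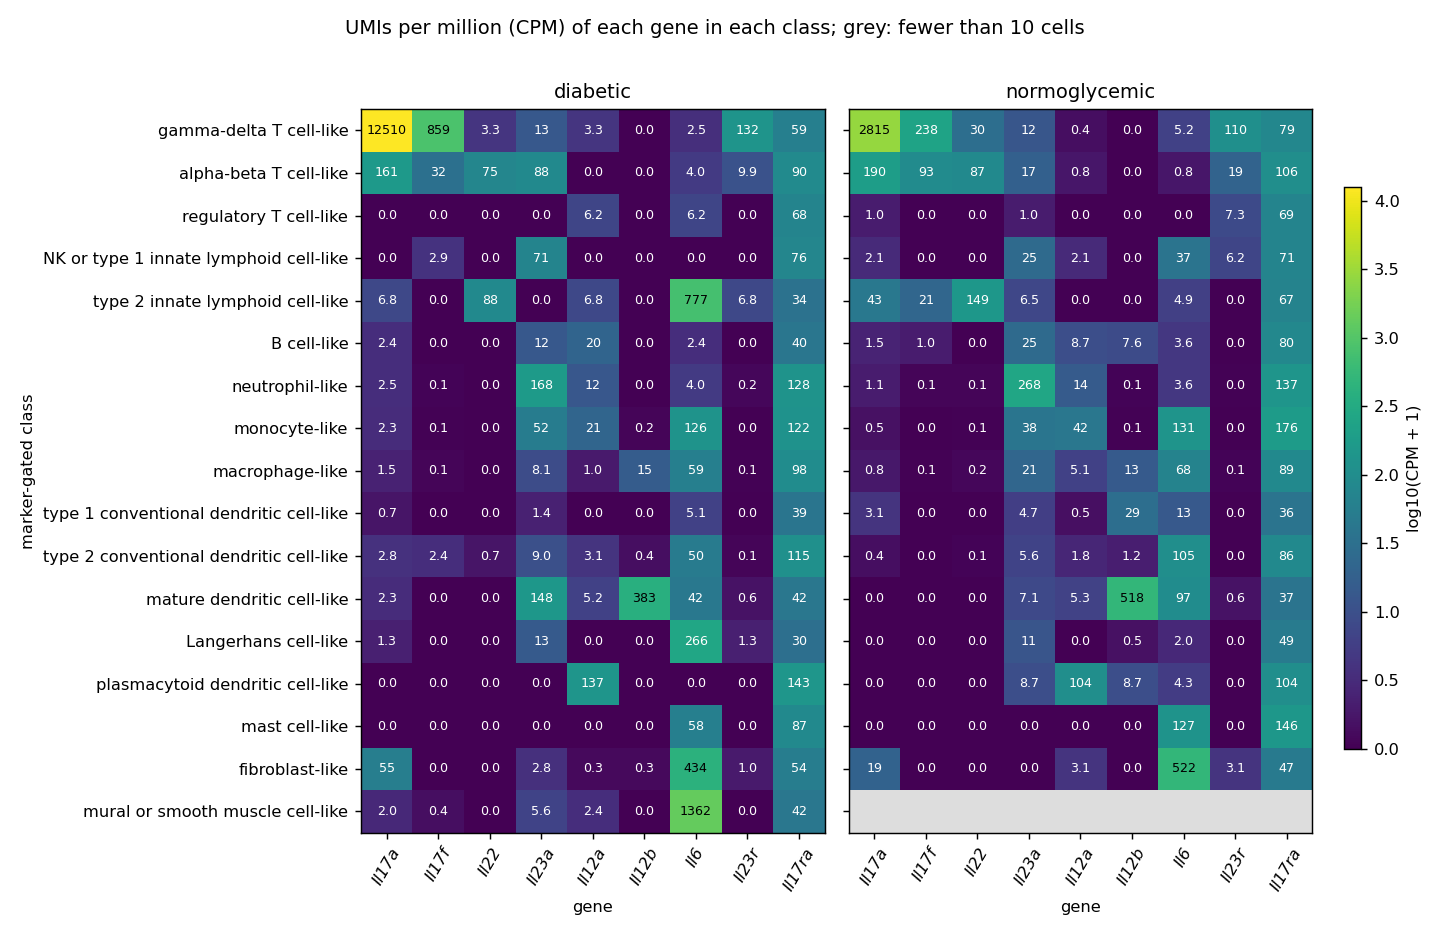
Level of each of the 9 genes (columns) in each marker-gated class (rows) in the diabetic library (left) and the normoglycemic library (right), printed as CPM and coloured by log10(CPM + 1). Il17a in gamma-delta T cell-like cells stands at 12509.9 CPM in the diabetic and 2815 CPM in the normoglycemic library, and grey rows have fewer than 10 cells.

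Il17a encodes interleukin 17A, the name-giving cytokine of the axis. In the 193 diabetic gamma-delta T cells it had 14951 UMIs, a level of 12509.9 CPM (12310.1 to 12712), and in the 296 normoglycemic ones 6485 UMIs, a level of 2815 CPM (2746.9 to 2884.4). The ratio of diabetic over normoglycemic was 4.44 (4.32 to 4.58). Of the 3 members led by this class, 2 (Il17a and Il17f) were at least 1.5-fold higher in the diabetic library, the size used here to call a difference, against 6.69% of the 7506 genes with at least 10 CPM in this class. A ratio at least as large as that of Il17a was seen for 25 of those genes, Il17a included.

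The difference lay in how much each cell held more than in how many cells held any. At least 1 Il17a UMI was found in 76.2% of diabetic and 71.6% of normoglycemic gamma-delta T cells, a difference of 4.54 percentage points (-3.54 to 12.2). Among cells with a UMI, the median was 56 UMIs in the diabetic and 10.5 UMIs in the normoglycemic library. At least 100 UMIs were counted in 51 diabetic cells (26.4%) and in 19 normoglycemic cells (6.42%). The cell with the most held 850 UMIs in the diabetic and 400 UMIs in the normoglycemic library. The libraries overlapped over most of this range, and median depth was lower in diabetic cells of this class (5478 UMIs) than in normoglycemic ones (6690.5 UMIs). With every cell thinned to 1000 UMIs, the shares with a UMI were 65.8% and 48.6%, a difference of 17.2 points (8.19 to 25.6).

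**Figure D2:**
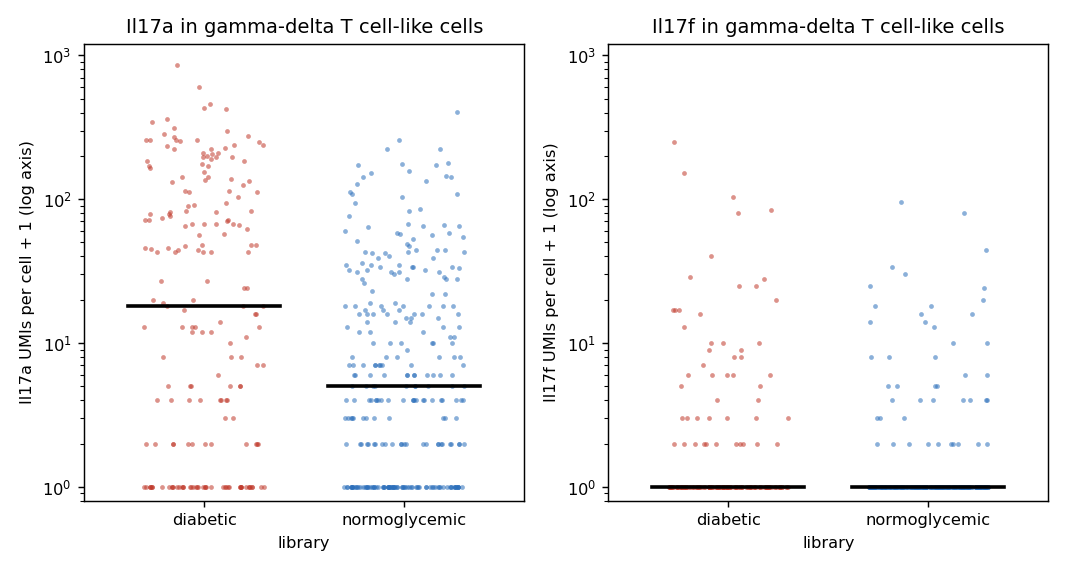
UMIs per cell plus 1 on a log axis, 1 point per gamma-delta T cell-like cell, for Il17a (left panel) and Il17f (right panel), with the diabetic library left of the normoglycemic one and a bar at the median. The median Il17a count is 17 UMIs in the diabetic and 4 UMIs in the normoglycemic library, and the median Il17f count is 0 in both.

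Almost all Il17a came from this class. Gamma-delta T cells held 96.3% of the Il17a UMIs of the diabetic library and 87.5% of those of the normoglycemic library, although they were 1.88% and 2.70% of the cells. B cells had 2 diabetic UMIs (2.45 CPM) and 3 normoglycemic UMIs (1.53 CPM) of Il17a, against which the gamma-delta T cell levels stood far higher. Alpha-beta T cells stood above the B cells in both libraries, at 161.3 CPM in 183 diabetic cells and 190.2 CPM in 434 normoglycemic cells (ratio 0.848, 0.706 to 1.014). Few of them carried the transcript: 8 diabetic and 27 normoglycemic cells. Without the top cell of each library the ratio was 0.603 (0.476 to 0.758). By cell sex, called from Xist and Y-linked transcripts, it was 1.61 in female cells, 1.93 in male cells and 0.0139 in cells with no call, each resting on at most 12 cells with the transcript per library. The 220 Il17a UMIs of diabetic fibroblasts lay almost wholly in 1 cell with 211 UMIs, which also had 11 Cd3e and 15 Trdc UMIs, both T cell genes. Cells with markers of more than 1 lineage held 14 diabetic and 208 normoglycemic UMIs. Only 1 cell in each library passed the gate for type 3 innate lymphoid cells, another known source of this cytokine.

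A UMI of Trdv4, a delta-chain variable segment of the T cell receptor, was found in 89.1% of diabetic and 80.4% of normoglycemic cells, and a UMI of the scavenger receptor gene Cd163l1 in 87.0% and 76.4%. For the gate marker Trdc the shares were 99.0% and 85.5%, and for the alpha-beta T cell marker Trac 26.4% and 39.9%. Expression cluster 13 held 90.7% of diabetic and 77.7% of normoglycemic cells of the class, with an Il17a ratio of 4.02 (3.90 to 4.15). Cluster 14, named alpha-beta T cell, held 2.07% and 13.9%. In the 172 diabetic cells with a Trdv4 UMI the Il17a level was 14135.5 CPM, against 3341.4 CPM in the 238 normoglycemic ones (ratio 4.23, 4.11 to 4.36). In cells with no Trdv4 UMI, 21 diabetic and 58 normoglycemic, the levels were 645.7 and 975.5 CPM (ratio 0.662, 0.525 to 0.828). Since Trdv4 and Cd163l1 were among the markers of the gate, these splits are descriptions within the class. By cell sex, the ratio over all gamma-delta T cells was 4.65 in 85 diabetic and 122 normoglycemic female cells and 3.10 in 50 diabetic and 106 normoglycemic male cells. In 58 diabetic and 68 normoglycemic cells with no call it was 7.41.

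Il17f encodes interleukin 17F, which shares its receptor with interleukin 17A. Gamma-delta T cells held 1027 diabetic UMIs, a level of 859.3 CPM (807.6 to 913.5), and 549 normoglycemic UMIs, a level of 238.3 CPM (218.8 to 259.1). The ratio was 3.61 (3.25 to 4.01), and 34 of 7506 genes were at least as high. A UMI was found in 26.4% of diabetic and 15.5% of normoglycemic cells, 10.9 points apart (3.57 to 18.5). Few cells carried most of it: the 5 highest cells held 64.8% of the diabetic and 50.8% of the normoglycemic UMIs of the class, and without them the ratio was 2.600 (2.22 to 3.06). Nearly all cells with Il17f also had Il17a, 49 of 51 diabetic and 44 of 46 normoglycemic gamma-delta T cells. In alpha-beta T cells Il17f went the other way, with 32 UMIs in the diabetic and 246 UMIs in the normoglycemic library (31.7 and 92.7 CPM, ratio 0.342, 0.229 to 0.495). There, 3 diabetic and 27 normoglycemic cells had a UMI, and without the top cell of each library the ratio was 0.149 (0.0756 to 0.265). Alpha-beta T cells were spread differently over clusters, with 37.7% of diabetic and 46.3% of normoglycemic cells in cluster 14 and 3.28% and 11.5% in cluster 18. B cells had 0 diabetic and 2 normoglycemic UMIs, and the diabetic count allows a level of up to 3.67 CPM (3 counts).

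Il22 encodes interleukin 22, which acts on epithelial cells, and it was scarce. Alpha-beta T cells held 76 UMIs (75.2 CPM) in the diabetic and 232 UMIs (87.4 CPM) in the normoglycemic library, a ratio of 0.861 (0.655 to 1.12), so no difference was detectable at this depth. These UMIs came from 3 diabetic and 11 normoglycemic cells, and without the top cell of each library the ratio was 0.390 (0.245 to 0.596). All 76 diabetic and 224 of the normoglycemic UMIs lay in 1 expression cluster of alpha-beta T cells, cluster 14. Gamma-delta T cells had 4 diabetic and 68 normoglycemic UMIs. Of the latter, 36 lay in 1 cell with 0 UMIs of the T cell genes Cd3e, Trdc and Trac. Without the top cell of each library, 1 diabetic and 32 normoglycemic UMIs remained. Type 2 innate lymphoid cells stood at 87.8 CPM from 1 of 25 diabetic cells and at 148.9 CPM from 9 of 86 normoglycemic cells. B cells had no Il22 UMI, which allows up to 3.67 CPM in the diabetic and 1.53 CPM in the normoglycemic library. Il22 and Il17a were seen together in 3 diabetic and 9 normoglycemic cells.

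The inducing subunits came from other cells, and Il23a and Il12b from different ones. Il23a, the subunit particular to interleukin 23, was highest in neutrophils, with 2881 UMIs in 4667 diabetic cells (168.2 CPM, 162.1 to 174.5) and 6176 UMIs in 4882 normoglycemic cells (268.3 CPM, 261.7 to 275.1). The ratio was 0.627 (0.600 to 0.655), past the 1.5-fold line, and 14.9% of the 3851 genes measured in this class were at least 1.5-fold lower. A UMI was found in 14.8% of diabetic and 27.7% of normoglycemic neutrophils, or in 7.52% and 12.9% with each cell thinned to 1000 UMIs. Neutrophils held 64.2% of the diabetic and 76.6% of the normoglycemic Il23a UMIs. B cells stood at 12.2 CPM (5.87 to 22.5) in the diabetic and 25.5 CPM (18.9 to 33.6) in the normoglycemic library, far below the neutrophils. Without the top B cell of each library these levels were 2.46 and 14.9 CPM.

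Neutrophils of the diabetic and the normoglycemic library were spread over different expression clusters, which were formed without the 9 genes. Clusters 1 and 2 held 29.96% and 36.7% of diabetic neutrophils but 11.6% and 0.184% of normoglycemic ones. Clusters 0 and 5 held 4.76% and 3.00% of diabetic but 40.8% and 24.6% of normoglycemic neutrophils. Within single clusters the Il23a ratio was 1.10 in cluster 0, 0.897 in cluster 1, 1.27 in cluster 3, 0.954 in cluster 5 and 0.781 in cluster 10. The level itself differed between clusters: in the normoglycemic library it was 85.8 CPM in cluster 1 and 369.4 CPM in cluster 5. The intervals of clusters 0, 1 and 5 include 1, that of cluster 3 lies above 1 (1.13 to 1.43) and that of cluster 10 lies below 1 (0.651 to 0.936). No value is given for cluster 2, which had 9 normoglycemic neutrophils. In these 5 clusters the ratio lay between 0.781 and 1.27, against 0.627 pooled, but cluster 2, with 36.7% of diabetic neutrophils, is not among them. The cause of the pooled ratio was not tested. The split by cluster was chosen after the values were seen. Among cells called female, where the 36 normoglycemic neutrophils had 1 UMI, the ratio was 16.0 (2.79 to 637), among male cells it was 0.569 (0.530 to 0.610), and among cells with no call 0.673.

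Il23a also appeared in monocytes, at 52.2 CPM in diabetic and 38 CPM in normoglycemic cells (ratio 1.37, 1.23 to 1.54), above the B cell levels of 12.2 and 25.5 CPM. The share of monocytes with a UMI went the other way, at 7.66% in the diabetic and 10.9% in the normoglycemic library, a difference of -3.26 points (-5.53 to -0.993). In mature dendritic cells it stood at 148.4 CPM in diabetic and 7.11 CPM in normoglycemic cells, and 200 of the 255 diabetic UMIs lay in 1 cell. That cell also had 188 UMIs of Il12b, the most of any diabetic cell. Without the top cell of each library the levels were 32.7 and 4.199 CPM (ratio 7.79, 3.54 to 20.3). The normoglycemic mature dendritic cell level was under the 25.5 CPM of normoglycemic B cells.

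Il12b encodes the subunit shared by interleukins 12 and 23. Mature dendritic cells, which have taken up antigen and migrate towards lymph nodes, held 658 UMIs in 118 diabetic cells (383.0 CPM, 354.3 to 413.4) and 874 UMIs in 110 normoglycemic cells (517.6 CPM, 483.9 to 553.1). The ratio was 0.740 (0.668 to 0.820), inside the 1.5-fold lines, while 13.9% of the genes of this class were at least 1.5-fold lower. It was past the line by Leiden clusters (0.626), without the top cell of each library (0.644) and without the top 5 cells (0.395). A UMI was found in 16.9% of diabetic and 32.7% of normoglycemic cells. In cells called male the ratio was 0.310, and in cells called female, 15 diabetic and 45 normoglycemic, it was 0.941. In the 29 diabetic and 11 normoglycemic cells with no call, which held 358 of the 658 diabetic UMIs, it was 1.92 (1.48 to 2.53). Mature dendritic cells held 75.6% of the diabetic and 65.2% of the normoglycemic Il12b UMIs, and macrophages 23.7% and 17.7%. Type 1 conventional dendritic cells, which present antigen to CD8 T cells, had 0 UMIs in 216 diabetic cells, which allows up to 0.696 CPM, and 123 UMIs in 208 normoglycemic cells (29.0 CPM). Neutrophils had 0 diabetic and 2 normoglycemic UMIs of Il12b, so the class that led for Il23a had almost none of the partner subunit. B cells had 0 diabetic and 15 normoglycemic UMIs of Il12b (7.65 CPM), the latter all in 1 cell. Across all cells, Il23a and Il12b were seen together in 4 diabetic and 6 normoglycemic cells, out of 952 and 1765 cells with Il23a and 44 and 77 cells with Il12b.

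Il12a encodes the subunit particular to interleukin 12. Monocytes held 278 UMIs in 1253 diabetic cells (21.1 CPM, 18.7 to 23.8) and 618 UMIs in 1273 normoglycemic cells (41.8 CPM, 38.5 to 45.2). The ratio was 0.506 (0.438 to 0.584), and 5.79% of the 6665 genes of this class were at least 1.5-fold lower. It was 1 of the 3 members led by monocytes to pass that line. Most of these UMIs, 268 diabetic and 592 normoglycemic, lay in cluster 7, led by Thbs1, Cxcl3 and Ptgs2, where the ratio was 0.661 (0.570 to 0.765). B cells stood at 19.6 CPM (11.2 to 31.8) in the diabetic and 8.67 CPM (5.05 to 13.9) in the normoglycemic library. The diabetic monocyte level was thus not above that of diabetic B cells, although diabetic monocytes of cluster 7 stood at 59.7 CPM. The B cell level was not common to all classes. Diabetic alpha-beta T cells and type 1 conventional dendritic cells had 0 Il12a UMIs, and diabetic macrophages stood at 0.989 CPM. With the B cell level taken off, the monocyte ratio was 0.0473, and how much of that level was free RNA was not tested. With nothing taken off, the ratio in cells called female was 27.8 (4.85 to 1111), since 103 normoglycemic monocytes had 1 UMI. In male cells it was 0.497 and in cells with no call 0.386. Plasmacytoid dendritic cells had the highest level of any class with at least 10 cells in each library, 137.0 CPM in 28 diabetic and 104.4 CPM in 16 normoglycemic cells. Without the top cell of each library these levels were 120.9 and 46.0 CPM. Of these cells, 18 diabetic and 8 normoglycemic ones had only the minimum of 3 markers. Il12a and Il12b were seen together in 1 cell of each library.

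Il6 encodes interleukin 6, which helps T cells enter the type 17 programme and is also made by stromal cells in response to interleukin 17. Monocytes had 1654 UMIs (125.8 CPM, 119.8 to 132.0) in the diabetic and 1938 UMIs (130.9 CPM, 125.2 to 136.9) in the normoglycemic library. The ratio was 0.961 (0.899 to 1.03). It was 1.014 in cluster 8, 1.05 in cluster 7, 1.43 (1.10 to 1.88) in cluster 4 and 0.852 (0.719 to 1.01) in cluster 6. By cell sex it was 0.485 (0.417 to 0.565) in female cells, 1.05 in male cells and 1.27 in cells with no call. A stricter gate gave 1.10 (1.03 to 1.18) and Leiden clusters 0.894 (0.832 to 0.961), on opposite sides of 1. Type 2 conventional dendritic cells, which present antigen to CD4 T cells, were lower in the diabetic library at 49.7 CPM, against 105.2 CPM (ratio 0.473, 0.418 to 0.533), while 7.04% of the genes of that class were lower by at least 1.5-fold. Macrophages stood at 58.9 CPM in diabetic and 68.4 CPM in normoglycemic cells. B cells had 2.45 and 3.57 CPM.

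Among classes with at least 50 diabetic cells, Il6 was highest in stromal cells, which were far more numerous in the diabetic library despite the CD45 sort. Mural or smooth muscle cells stood at 1362.4 CPM, with a UMI in 139 of 262 diabetic cells, and the normoglycemic library had only 5 such cells. Fibroblasts stood at 434.1 CPM in 259 diabetic cells and 522.4 CPM in 22 normoglycemic cells, where 103 of the 167 UMIs lay in 1 cell. Mural cells held 34.2% and fibroblasts 17.3% of the diabetic Il6 UMIs (the plot of UMIs by class), so the higher Il6 level over the whole diabetic library, 127.9 CPM against 57.3 CPM in the normoglycemic library, cannot be told apart from how many stromal cells passed the sort. Single cells made the level in small diabetic classes: 107 of 115 UMIs in type 2 innate lymphoid cells, 200 of 201 UMIs in Langerhans cells and all 38 UMIs in the 3 basophils.

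**Figure D3:**
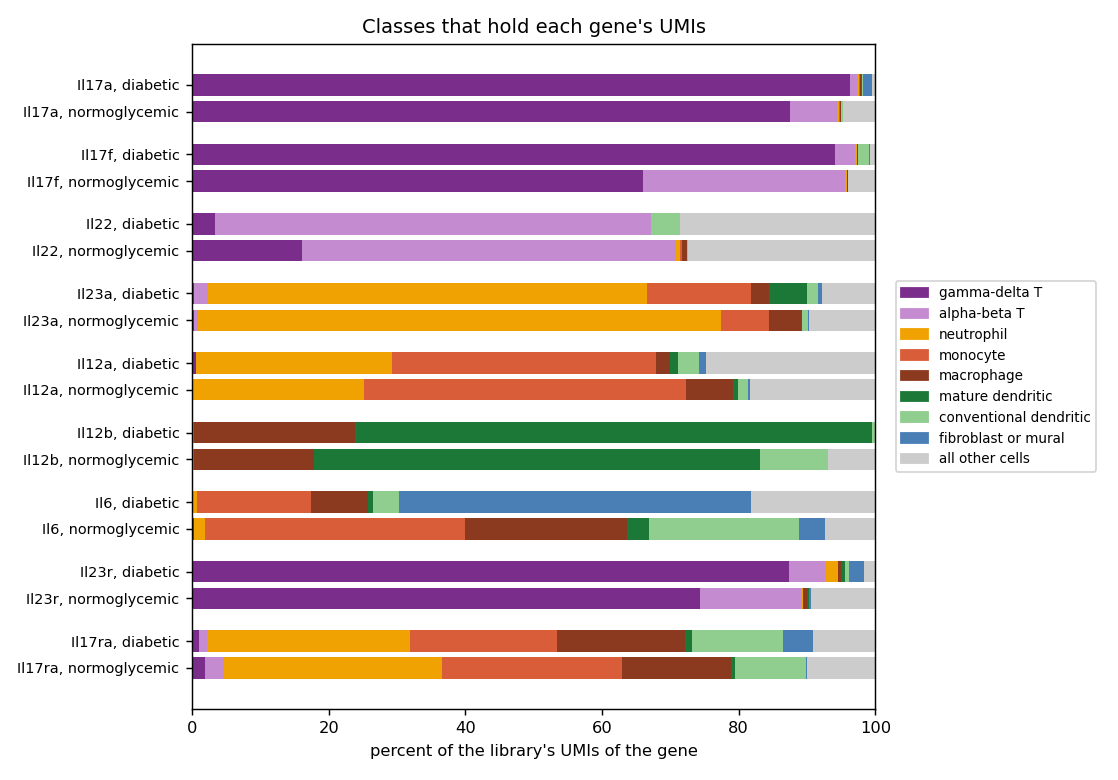
Share of the UMIs of each gene (percent of the library, bars from 0 to 100) that lay in each class, with the diabetic library above the normoglycemic one for each gene. Gamma-delta T cell-like cells hold 96.3% of diabetic and 87.5% of normoglycemic Il17a UMIs, neutrophil-like cells 64.2% and 76.6% of Il23a UMIs, and fibroblast-like and mural cell-like cells a large share of Il6 UMIs in the diabetic library.

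Il23r, the receptor subunit particular to interleukin 23, was carried mainly by the class that held most Il17a. Gamma-delta T cells held 158 UMIs (132.2 CPM, 112.4 to 154.5) in the diabetic and 254 UMIs (110.3 CPM, 97.1 to 124.7) in the normoglycemic library. The ratio was 1.20 (0.977 to 1.47), so the levels were not distinguishable at this depth. A UMI was found in 48.7% of diabetic and 49.3% of normoglycemic cells. These cells held 87.3% and 74.3% of all Il23r UMIs. Alpha-beta T cells followed at 9.90 CPM in diabetic and 19.2 CPM in normoglycemic cells (ratio 0.515, 0.233 to 1.03). B cells had no UMI in either library. Of the gamma-delta T cells with Il23r, 77 of 94 diabetic (81.9%) and 109 of 146 normoglycemic cells (74.7%) also had Il17a. These shares were near those of all gamma-delta T cells with Il17a, 76.2% and 71.6%.

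Il17ra, the receptor subunit for interleukins 17A and 17F, was found in all 9 large classes. In the diabetic library it was highest among the large classes in neutrophils (127.9 CPM, 122.6 to 133.3), then monocytes (121.6 CPM, 115.7 to 127.7), type 2 conventional dendritic cells (114.5 CPM, 106.8 to 122.7) and macrophages (97.5 CPM, 92.5 to 102.8). The intervals of the first 3 overlap. In the normoglycemic library monocytes stood first (175.8 CPM, 169.1 to 182.7), then neutrophils (136.6 CPM, 131.9 to 141.5), alpha-beta T cells (106.2 CPM, 94.2 to 119.4), macrophages (88.8 CPM, 84.5 to 93.3) and type 2 conventional dendritic cells (86.2 CPM, 80.5 to 92.1). Gamma-delta T cells were lower, at 58.6 CPM in diabetic and 79.4 CPM in normoglycemic cells. B cells stood at 40.4 CPM in the diabetic and 80.0 CPM in the normoglycemic library, and how much of that was free RNA was not tested.

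In monocytes the Il17ra ratio was 0.692 (0.650 to 0.736), and it lay between 0.640 and 0.723 in clusters 4, 7 and 8. In cluster 6, with 60 diabetic and 91 normoglycemic monocytes, it was 0.812 (0.567 to 1.15). A UMI was found in 55% of diabetic and 69.0% of normoglycemic monocytes. In type 2 conventional dendritic cells it was higher in the diabetic library, with a ratio of 1.33 (1.21 to 1.46). The monocyte ratio was 1.51 (1.24 to 1.85) in the 296 diabetic and 103 normoglycemic cells called female and 0.616 (0.565 to 0.672) in the 611 and 840 cells called male. In cells with no call it was 0.602. Its usual partner Il17rc stood at 3.35 CPM in diabetic and 3.91 CPM in normoglycemic gamma-delta T cells, with 29.1 CPM in the 85 diabetic epithelial cells that express keratins, 17.6 CPM in diabetic mural cells and 16.6 CPM in diabetic fibroblasts. Il22ra1, the receptor subunit through which interleukin 22 acts, had 0 UMIs in gamma-delta T cells, alpha-beta T cells and fibroblasts of both libraries. Its level in epithelial cells is not reported here.

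**Figure D4:**
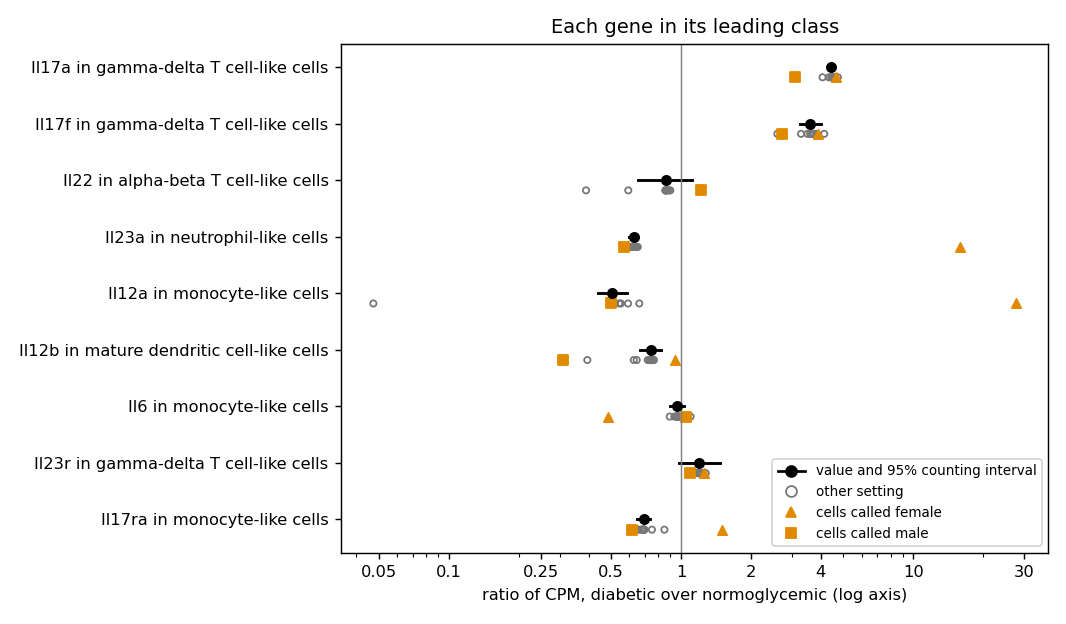
Ratio of CPM, diabetic over normoglycemic, on a log axis, for each gene in its leading class (black, with the 95% counting interval), under other settings (open grey circles) and in cells called female (triangles) or male (squares). Il17a at 4.44 and Il17f at 3.61 stay above 1 under every setting shown, Il23a, Il12a and Il17ra lie on the other side of 1 in female cells, and values of 0 for Il22 are not drawn.

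The remaining genes of the pathway did not follow Il17a in gamma-delta T cells (the plot of pathway ratios). Of 58 listed genes, 36 reached 10 CPM in this class, and of these 2 were at least 1.5-fold higher and 6 at least 1.5-fold lower in the diabetic library, while 6.69% and 13.6% of all 7506 genes were. The median log2 ratio of the 36 was -0.19, against -0.09 over all genes. The list was drawn up with earlier results of these data known.

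The type 17 programme is the set of transcription factors and receptors that type 17 cells share. All 11 of its genes were measured and none was past 1.5-fold in either direction, with a median log2 ratio of -0.08. Il7r, the receptor subunit for interleukin 7, stood at 1313.7 CPM in diabetic and 1387.8 CPM in normoglycemic cells, and in the same order of libraries the transcription factor gene Maf at 953.9 and 754.4 CPM, the nuclear receptor gene Rora at 835.0 and 999.7 CPM, and the interleukin 18 receptor gene Il18r1 at 251.0 and 312.1 CPM. Irf4 (ratio 1.49, 1.25 to 1.78) and Ahr (1.48, 1.23 to 1.78), both transcription factor genes of the programme, came nearest to the 1.5-fold line and were singled out after their values were seen.

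Other roles held few measured genes in gamma-delta T cells. Of the receptor subunits, Il12rb1, which pairs with Il23r, stood at 31.0 CPM in diabetic and 23 CPM in normoglycemic cells (ratio 1.35, 0.860 to 2.09). Il17re, an interleukin 17 receptor subunit, stood at 37.7 and 39.9 CPM. Of 9 measured signalling genes, 1 was lower by 1.5-fold and none higher. Stat3, the transcription factor downstream of interleukins 6 and 23, stood at 156.5 CPM in diabetic and 174.5 CPM in normoglycemic cells. Of the 10 measured targets of interleukin 17, 2 were higher and 4 lower. The higher ones were Cxcl1 (124.7 and 55.6 CPM) and Cebpd (16.7 and 10.9 CPM), named after their values were seen. The lower ones included the chemokine gene Cxcl2 (2974.6 and 5159.9 CPM) and the neutrophil granule gene S100a8 (1435.8 and 3193.1 CPM). In B cells S100a8 stood at 2345 CPM in the diabetic and 5537.4 CPM in the normoglycemic library, and the part of free RNA in these levels was not tested.

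**Figure D5:**
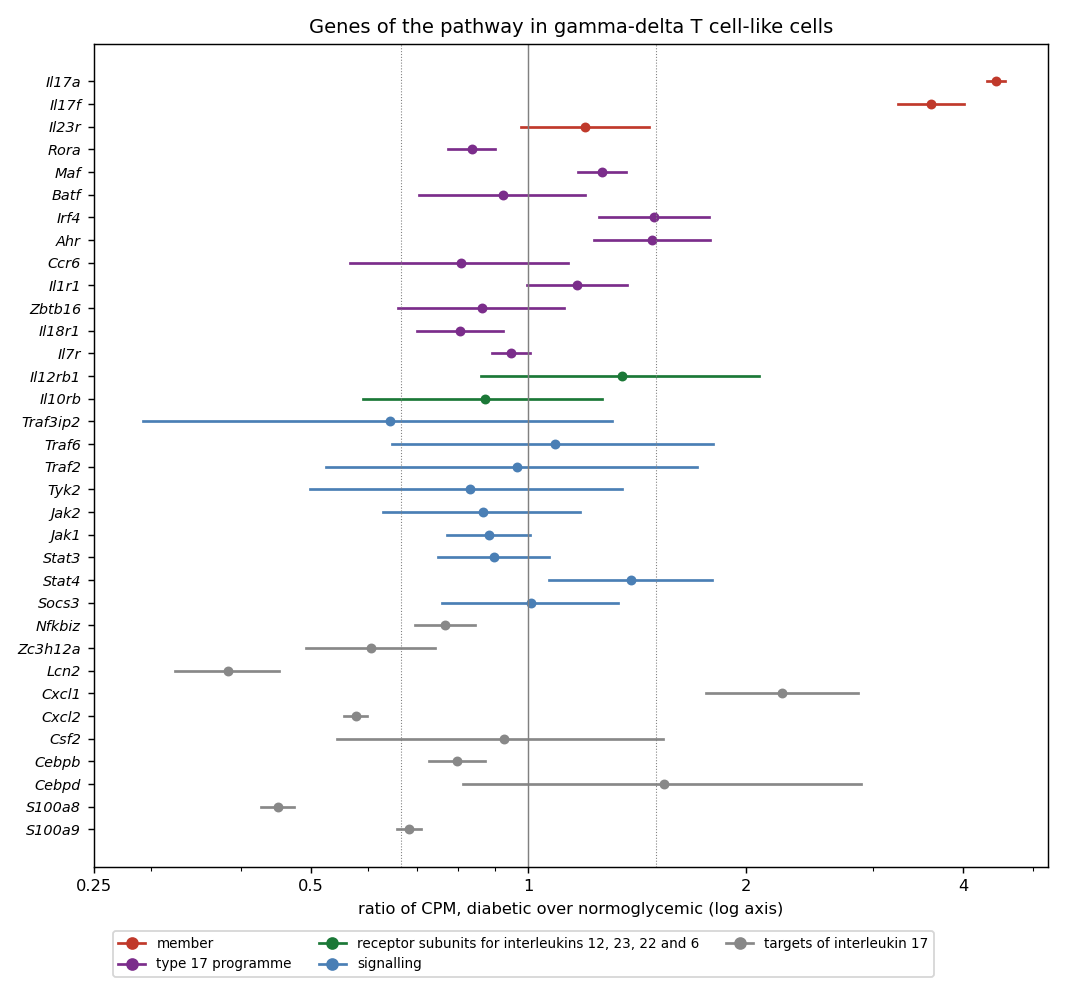
Ratio of CPM, diabetic over normoglycemic, on a log axis with 95% counting intervals, in gamma-delta T cell-like cells, for the 3 members led by this class and for measured genes of 4 roles of the pathway, with dotted lines at 1.5-fold. Il17a at 4.44 and Il17f at 3.61 stand apart from the genes of the type 17 programme that are drawn, all of which lie within the dotted lines.

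In the classes that led for the inducing subunits and receptors, more pathway genes were lower than higher in the diabetic library. Neutrophils had 2 higher and 5 lower of 23 measured (median log2 ratio -0.15, against 0.12 over all genes), with 19.2% of all genes higher and 14.9% lower. Tgfb1, whose product helps to start the type 17 programme, stood at 63.6 CPM in diabetic and 233.6 CPM in normoglycemic neutrophils. Il1b, an inducer of interleukin 17 in gamma-delta T cells, stood at 28891.5 and 23595.9 CPM (ratio 1.22). Among targets of interleukin 17 in these cells, 1 of 11 was higher and 2 were lower. Cxcl2, a chemokine for neutrophils, stood at 78569.6 CPM in diabetic and 88824.5 CPM in normoglycemic neutrophils, and S100a9 at 97718.8 and 86830.5 CPM.

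Monocytes had 0 higher and 5 lower of 31 measured pathway genes, with 5.22% of all genes higher and 5.79% lower. Mature dendritic cells had 2 higher and 8 lower of 36, with 10.5% of all genes higher and 13.9% lower. Alpha-beta T cells had 2 higher and 18 lower of 39, with 9.27% of all genes higher and 16.7% lower. Their type 17 programme had 7 of 11 genes lower, among them Rora (366.2 CPM in diabetic and 650.1 CPM in normoglycemic cells) and Il18r1 (146.5 and 255.0 CPM). Macrophages had 1 higher and 7 lower of 34, with 2.63% of all genes higher and 3.92% lower. Type 2 conventional dendritic cells had 1 higher and 11 lower of 33, with 4.94% of all genes higher and 7.04% lower.

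The genes whose levels were most like those of a member were found by Pearson's r of log2(CPM + 1) over 27 points, each a class in 1 library with at least 50 cells. These points share the libraries and the free RNA, and gate markers are among the genes, so the values are descriptions. For Il17a the first was Il17f (r = 0.941), and the next were Olfr60 (0.930) and the T cell receptor genes Tcrg-C1 (0.921) and Trgv2 (0.920). Il23r was most like Lingo4 (0.947) and Cd247 (0.944), a CD3 chain gene. Il23a was most like Trem1 (0.789), Clec4e (0.786) and Cxcl3 (0.781), all known in activated neutrophils and monocytes. Il12b was most like Tm4sf5 (0.875), Il22 like Nsg2 (0.888), with Il13 (0.880) also among its first 5. Il6 was most like Hacd1 (0.835) and Il12a like the non-coding A930007I19Rik (0.861). For Il17ra, Rap1b (0.858) and Msl2 (0.828) were among the first 5.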

How the data were processed

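The deposited counts are UMI tallies in Cell Ranger matrices (version 4.0.0 per the file headers, but 6.0.2 with build mm10 in the submitters' processing notes). Barcodes with under 500 UMIs, under 200 genes or over 15% mitochondrial UMIs were dropped (236 diabetic, 332 normoglycemic). A class needed 3 detected markers (4 for neutrophils, 2 for T cells and their subsets), and the best scoring class was taken. Cells whose second lineage reached 0.5 of the top score (256 diabetic, 186 normoglycemic) were set aside, no doublet caller was run, and 492 diabetic and 700 normoglycemic cells passed no gate. Intervals were exact Poisson for CPM, conditional binomial for ratios, Clopper-Pearson for shares and Newcombe for their differences. A gene counted as measured in a class where the diabetic or the normoglycemic level reached 10 CPM. All 9 members were described, and per role of the pathway list up to 4 genes of highest level were named. Leiden clusters (scanpy 1.11.5, resolution 1) were computed on both libraries together. Alternatives changed cell filters, gates, scaling, depth, free RNA correction, cell sex and top cells. Scripts were tested on simulated counts. Positions came from GENCODE and promoters from RefSeq. The members, lists and markers were chosen with earlier results of these data known. Values of some genes of the lists are not reported here.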

Additional observations from a re-analysis of the deposited data

Results flagged for a closer look

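In several classes the ratio of diabetic over normoglycemic lay on the other side of 1 from that in the leading class of the same gene. None of these differences between classes was tested. For Il17f, alpha-beta T cells had a ratio of 0.342, against 3.61 in gamma-delta T cells. For Il17a, type 1 conventional dendritic cells had a ratio of 0.227, from 3 diabetic and 13 normoglycemic UMIs, at levels (0.696 and 3.07 CPM) near those of B cells (2.45 and 1.53 CPM). Without the top cell of each library it was 0.654 (0.0546 to 5.71). Against 0.627 in neutrophils, Il23a had ratios of 1.37 in monocytes, 1.59 in type 2 conventional dendritic cells, 5.20 in alpha-beta T cells and 20.9 in mature dendritic cells. Without the top cell of each library the ratios were 1.30 in monocytes, 1.27 (0.817 to 1.97) in type 2 conventional dendritic cells, 3.45 in alpha-beta T cells and 7.79 in mature dendritic cells. The type 2 conventional dendritic cell levels, 8.96 and 5.62 CPM, were under those of B cells (12.2 and 25.5 CPM). So were the normoglycemic levels of alpha-beta T cells (16.9 CPM) and mature dendritic cells (7.11 CPM). The B cell levels also rested on single cells. Without the top cell of each library, B cells stood at 2.46 CPM in the diabetic and 14.9 CPM in the normoglycemic library. Type 2 conventional dendritic cells then stood at 5.91 and 4.65 CPM, so the diabetic level was no longer under that of B cells. In diabetic alpha-beta T cells 51 of the 89 Il23a UMIs lay in 1 cell. The share of alpha-beta T cells with a UMI was 2.19% in the diabetic and 2.76% in the normoglycemic library. In mature dendritic cells it was 11.9% and 6.36%. Il12a had a ratio of 2.26 in B cells, against 0.506 in monocytes. Il17ra had ratios of 1.10 in macrophages and 1.33 in type 2 conventional dendritic cells, against 0.692 in monocytes.

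The matrices also hold 4 antibody capture features that no comparison used. They had 250351 UMIs in the diabetic and 700188 UMIs in the normoglycemic library. A barcode with at least 20 such UMIs, of which at least 90% came from 1 feature, was found 251 times in the diabetic and 424 times in the normoglycemic library. The labels used here do not tie the features to mice.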

How the results depend on the processing

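Of 162 values under other settings, 121 stayed inside the counting interval of the value reported, and 41 did not. Where the interval reported lay wholly on one side of no difference, 3 values changed side, all in cells called female, with ratios of 15.95 for Il23a, 27.8 for Il12a and 1.51 for Il17ra. Where it included no difference, 9 values changed side. They were the ratios of Il22 with Leiden clusters and in male cells, those of Il6 with the stricter gate, thinned and in male cells, and 4 differences in share that stayed inside the interval: Il17a with Leiden clusters (-1.07 points), Il22 thinned (0.257) and with Leiden clusters (0.0569), and Il23r thinned (3.36). In cells called female Il17a moved to 4.65, Il12b to 0.941, Il6 to 0.485 and Il22 to 0. In male cells the ratios were 3.10 (Il17a), 2.72 (Il17f), 1.22 (Il22), 0.569 (Il23a), 0.310 (Il12b), 1.05 (Il6) and 0.616 (Il17ra). With Leiden clusters they were 4.07 (Il17a), 4.14 (Il17f), 1.22 (Il22), 0.626 (Il12b), 0.894 (Il6) and 0.749 (Il17ra). TMM scaling gave 4.74 for Il17a and 0.566 for Il23a. With cells thinned to 1000 UMIs, the ratios were 4.62 (Il17a), 0.593 (Il22), 1.04 (Il6) and 0.634 (Il17ra), and the differences in share were 17.2 points (Il17a), -5.38 (Il23a), -0.912 (Il12a) and -5.62 (Il17ra). The stricter gate gave 0.661 for Il12a and 1.10 for Il6, and keeping cells of more than 1 lineage gave 0.592 for Il12a. With the B cell level subtracted, Il12a stood at 0.0473 and Il17ra at 0.848, and how much of either B cell level was free RNA was not tested. Without the top cell of each library Il22 was 0.390 and Il12b 0.644. Without the top 5 cells, a setting added after the data were seen, Il17f was 2.600, Il22 0, Il23a 0.598 and Il12b 0.395. The cause was not tested. No paired analysis was possible because each group is 1 library and the labels do not tie its cells to mice. The antibody capture features were not used to separate mice.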
